A study of Caenorhabditis elegans with 6 samples.

Results

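The 6 transcription factor genes mec-3, unc-86, egl-44, egl-46, zag-1 and ahr-1, which set the fate and branching of PVD and of touch neurons in Caenorhabditis elegans, were compared between RNA enriched from PVD and OLL neurons and RNA of the whole animal. The members were every probe set of the array whose single annotated gene was 1 of these 6 genes. That gave 8 of the 22548 probe sets tested and 6 of the 17118 genes they represent. egl-44 and egl-46 had 2 probe sets each and the other 4 genes had 1 each.

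The PVD/OLL group was poly(A) RNA from L3/L4 larvae, recovered through a FLAG-tagged copy of the poly(A) binding protein PAB-1 that the ser-2prom3B promoter drove in these neurons, and it was hybridised on 3 arrays. The whole animal group was total RNA extracted from L3/L4 larvae with Trizol, also on 3 arrays. Both groups were grown at 25 °C and amplified with the NuGEN WT-Pico kit, and no mutant allele is named for either. The promoter is a limit of the model, since it labels OLL, a pair of head sensory neurons, as well as PVD, and tissue and kind of RNA changed together. Only the neuronal samples are titled biological replicates. The whole animal samples carry a bare number, and the p-values cover no more than the spread among these arrays, part of which may be technical.

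PVD is a nociceptor with a tree of dendrites under the skin, and touch neurons are unbranched cells that sense gentle touch. Both depend on UNC-86, a POU homeodomain protein that switches on mec-3, and on MEC-3, a LIM homeodomain protein that binds DNA together with UNC-86. EGL-44, a TEAD factor, and EGL-46, a zinc finger protein, work as a pair that turns off touch neuron genes in FLP, a branched nociceptor of the head. ZAG-1, a zinc finger homeodomain protein of the ZEB family, and AHR-1, the aryl hydrocarbon receptor, steer related cells between the branched and the touch neuron form.

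All values are RMA signals on a scale taken to be log2. Differences are PVD/OLL minus whole animal, from limma with its moderated standard error (SE), n = 3 arrays per group, and a gene was counted as changed at a Benjamini-Hochberg adjusted p under 0.05 over all 22548 probe sets. Where a gene had more than 1 probe set, the brightest over all 6 arrays stood for it. The no-target background, the 95th percentile of 32 control probe sets with no target in worm RNA, was 2.28 to 2.44 on the PVD/OLL arrays and 2.95 to 3.43 on those of the whole animal. Replicate 3 stood apart in both groups. Its correlation with the other arrays over all probe sets was 0.954 and 0.961 in the PVD/OLL group and 0.938 and 0.940 in the whole animal group, against 0.988 and 0.973 between replicates 1 and 2. Of the defining markers of the labelled cells, F49H12.4, the tyramine receptor gene ser-2 and the glutamate transporter gene eat-4 had means of 2.75, 2.91 and 2.78 on the PVD/OLL arrays, close to the background, and 2.72, 2.19 and 2.77 on the whole animal arrays. The PVD genes deg-3 and des-2 had means of 9.86 and 7.41 on the PVD/OLL arrays and 5.59 and 3.32 on the whole animal arrays.

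All 6 factors rose in the PVD/OLL RNA, and 0 fell. At an unadjusted p under 0.05 the limma counts were also 6 and 0. The share of all genes at that threshold is not given, here or for the lists below. Over all genes 8.1% rose and 4.66% fell. By probe set, 6 of 8 rose, against 9.31% of all probe sets that rose and 4.28% that fell. The median difference of the 6 genes was 1.77, against -0.07 for all genes. On 7 of the 8 probe sets every PVD/OLL array lay above every whole animal array, which was so for 20.4% of all probe sets. In a bulk sample, more cells of a type and more RNA per cell cannot be told apart. Without PVD/OLL replicate 2 only 3 of the 6 genes passed the test, namely mec-3, egl-44 and ahr-1, and all 6 still differed in the same direction.

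**Figure D1:**
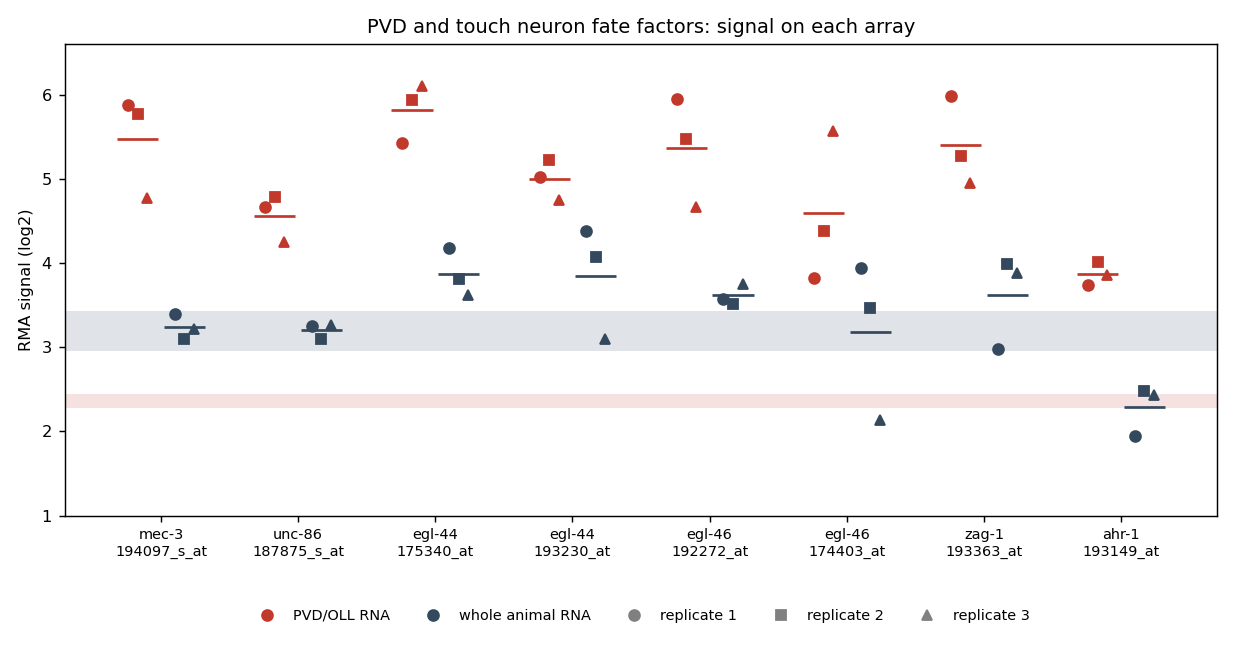
RMA signal (log2) of the 8 probe sets of the 6 fate factors on each array, with PVD/OLL arrays in red left of whole animal arrays in dark blue, marker shapes for the replicate and short lines for group means. The red and blue bands span the no-target background of each group's arrays (2.28 to 2.44 and 2.95 to 3.43), and the colours overlap on 1 probe set of egl-46 (174403_at).

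mec-3, which PVD needs for its higher-order branches and touch neurons for their differentiation, had signals of 5.88, 5.77 and 4.77 on PVD/OLL replicates 1, 2 and 3. On the whole animal arrays its signals were 3.40, 3.10 and 3.22. The groups did not overlap, and the lowest PVD/OLL array was replicate 3. mec-3 rose by 2.23 ± 0.31 (95% interval 1.50 to 2.96, adjusted p = 0.00741), a 4.69-fold difference, the largest of the 6. Only 0.619% of genes had a larger difference. On the whole animal arrays mec-3 exceeded the background on 2 of 3. Its probe set, 194097_s_at, is of the kind that can match more than 1 transcript. It passed the test in every one of the 15 alternatives that could be run on it, with adjusted p up to 0.0417.

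unc-86, the upstream activator of mec-3, had signals of 4.66, 4.78 and 4.24 in the PVD/OLL group. In the whole animal group they were 3.25, 3.10 and 3.27. Again the groups were apart and PVD/OLL replicate 3 was the lowest of its group. The rise was 1.36 ± 0.21 (95% interval 0.86 to 1.85, adjusted p = 0.00948), or 2.56-fold, and was the smallest of the 6. Without PVD/OLL replicate 2 the adjusted p was 0.0515. Like that of mec-3, its probe set (187875_s_at) can match several transcripts, and its whole animal signal exceeded the background on 2 of 3 arrays.

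egl-44 encodes the TEAD factor of the EGL-44 and EGL-46 pair. Its brighter probe set, 175340_at, had signals of 5.42, 5.93 and 6.11 on the PVD/OLL arrays. The whole animal arrays had 4.18, 3.81 and 3.62 there. Every PVD/OLL array was the higher, with replicate 3 at the top of its group. The rise was 1.95 ± 0.26 (95% interval 1.36 to 2.55, adjusted p = 0.00633), a 3.87-fold difference, and it passed the test in all 16 alternatives. The other probe set, 193230_at, had 5.02, 5.22 and 4.75 in the PVD/OLL group. Its whole animal signals were 4.38, 4.07 and 3.10. These groups did not overlap either, but the difference of 1.15 ± 0.34 (95% interval 0.35 to 1.94) missed the threshold (adjusted p = 0.0642). It passed in 3 of 16 alternatives, namely the fit without the arrays numbered 3 (0.90, adjusted p = 0.0294), array weights and the centring on the bioB and bioC controls. Each of these also called more probe sets of the whole array higher than the deposited values did.

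egl-46, the zinc finger partner of egl-44, was read differently by its 2 probe sets. Probe set 192272_at had signals of 5.95, 5.48 and 4.66 on PVD/OLL replicates 1, 2 and 3. Its whole animal signals were 3.57, 3.51 and 3.76. The groups were apart, and the rise was 1.75 ± 0.33 (95% interval 0.99 to 2.51, adjusted p = 0.0159), or 3.36-fold. The call was lost when PVD/OLL replicate 2 was left out (adjusted p = 0.0702), and likewise for replicate 1 (0.0516) or 2 (0.0555) of the whole animal group. Probe set 174403_at had 3.83, 4.38 and 5.56 on the same PVD/OLL arrays, so that replicate 3 was the highest here and the lowest on the other. On the whole animal arrays it had 3.94, 3.46 and 2.13. These groups overlapped, since PVD/OLL replicate 1 lay below whole animal replicate 1, and the difference of 1.41 ± 0.57 did not pass the test (adjusted p = 0.134). Without the arrays numbered 3 it was 0.40, and without PVD/OLL replicate 1 it was 1.79. Taking egl-46 by this probe set, the 1 with the larger spread, leaves 5 of the 6 genes called.

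zag-1, the ZEB family gene, had signals of 5.99, 5.27 and 4.95 in the PVD/OLL group. The whole animal arrays gave 2.98, 3.98 and 3.89, above background on 2 of 3, with replicate 1 below its background of 3.09. The groups did not overlap, with SDs of 0.53 in the PVD/OLL group and 0.55 in the whole animal group. The rise was 1.78 ± 0.36 (95% interval 0.94 to 2.63, adjusted p = 0.021), a 3.44-fold difference with the widest interval among the 6 called probe sets. Its call was lost without PVD/OLL replicate 1 (adjusted p = 0.0645), PVD/OLL replicate 2 (0.0725) or whole animal replicate 1 (0.0531), and after repeated quantile normalization (0.0548). Without whole animal replicate 1 the difference was 1.47.

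ahr-1, which encodes the aryl hydrocarbon receptor, had signals of 3.73, 4.02 and 3.86 in the PVD/OLL group, the tightest of the 8 probe sets in that group (SD 0.14). In the whole animal group they were 1.95, 2.48 and 2.43, below the no-target background on all 3 arrays. Against that background the PVD/OLL signal was at least 1.64-fold higher, a bound that was not itself tested. The measured means were 3.87 in the PVD/OLL group and 2.29 in the whole animal group, a difference of 1.58 ± 0.22 with a 95% interval of 1.07 to 2.09. Every one of the 16 alternatives kept it past the threshold, with adjusted p up to 0.0421.

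An exact two-sided permutation test over the 6 arrays cannot give less than 0.1 in this design. It gave 0.1 for the 7 probe sets without overlap and 0.2 for probe set 174403_at of egl-46.

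The factors did not move alike from array to array. Relative to the whole animal mean, mec-3 stood at 2.64, 2.53 and 1.53 on PVD/OLL replicates 1, 2 and 3. Probe set 192272_at of egl-46 stood at 2.33, 1.86 and 1.05, and zag-1 at 2.37, 1.65 and 1.33. The first probe set of egl-44 ran the other way, at 1.56, 2.06 and 2.24. For ahr-1 the values were 1.45, 1.73 and 1.57. Replicate 3 was thus the lowest array for mec-3, unc-86, zag-1 and 1 probe set each of egl-44 and egl-46, and the highest for the other probe set of both. A list of 10 pan-neuronal genes (unc-119, rab-3 and 8 others) had median differences of 1.64, 1.52 and 0.72 on the same 3 arrays. unc-119 alone had 7.90, 7.88 and 4.80 there, and 5.76, 6.36 and 4.31 on the whole animal arrays. The part of neuronal yield in the factors' values was not tested. Of these 10 genes 5 rose and 0 fell, where 12.8% of all genes changed. By the unadjusted limma p the counts at 0.05 were 7 and 0. Without PVD/OLL replicate 1 or 2 or whole animal replicate 2 the snt-1 call was lost (adjusted p up to 0.0958).

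**Figure D2:**
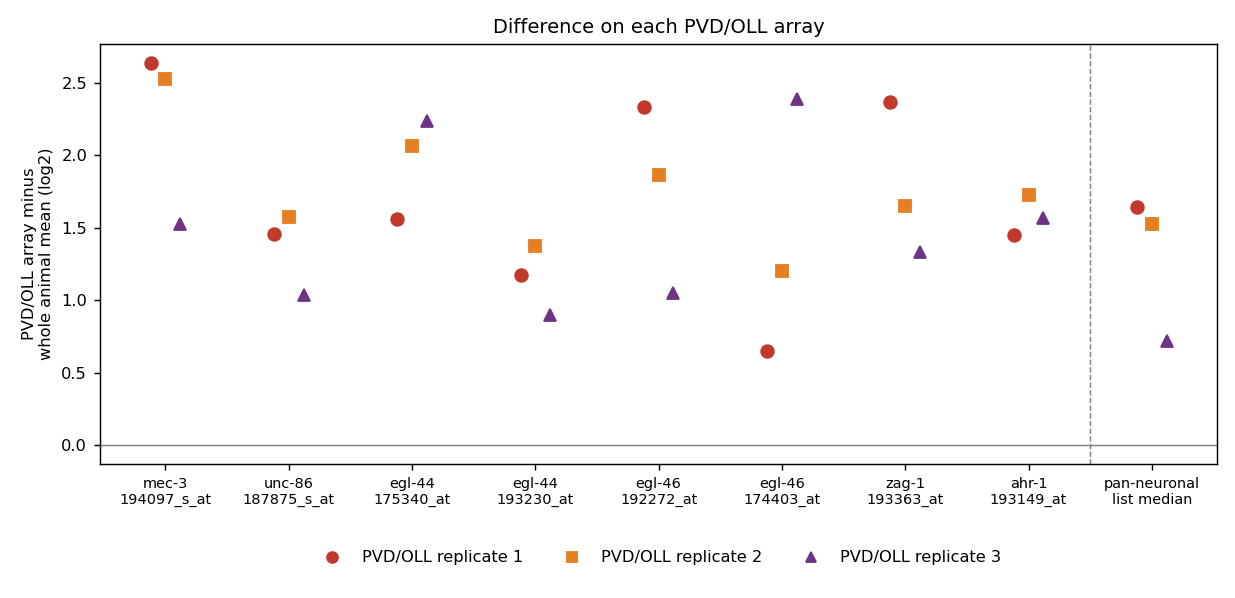
Each PVD/OLL array's signal minus the mean of the whole animal arrays (log2) for the 8 probe sets, with marker shape and colour for the replicate, and right of the dashed line the median over 10 pan-neuronal genes. Replicate 3 is lowest for mec-3 (1.53) and the pan-neuronal median (0.72) and highest for 174403_at of egl-46 (2.39).

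Genes for proteins that bind the factors or act beside them were read from a list. Of these 14 regulators, 4 rose and 0 fell in limma (7 and 1 by the unadjusted p), where 12.8% of all genes changed. The list median was 0.58. sem-4, a Spalt zinc finger gene that keeps mec-3 off in other lineages, rose by 2.31 ± 0.41 (adjusted p = 0.0134), and another probe set, below background on all whole animal arrays, did not pass (adjusted p = 0.0858). lin-39, the midbody Hox gene, rose by 2.07 ± 0.33 (adjusted p = 0.0102). yap-1, whose protein is the coactivator of TEAD factors such as EGL-44, rose by 1.26 ± 0.28 (adjusted p = 0.0275). Its signals were 6.89, 7.50 and 7.58 on the PVD/OLL arrays, and 6.39, 5.65 and 6.15 on the whole animal arrays. unc-3, a gene of motor neuron fate, was the last of the 4, with a measured rise of 1.08 ± 0.24 (adjusted p = 0.0257). It was below background on all whole animal arrays, and against that background it was at least 1.58-fold higher. The count was 0 without PVD/OLL replicate 2. It was 2 without replicate 1 of that group, where sem-4 (adjusted p = 0.0501) and unc-3 (0.0921) were lost, and 2 without replicate 3, where yap-1 (0.0617) and unc-3 (0.0532) were lost. Without whole animal replicate 2 the calls of yap-1 (0.0781) and unc-3 (0.0798) were lost, while aha-1 (0.0322) and lin-14 (0.0391) passed.

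For the direct partners of MEC-3 and AHR-1 every probe set was higher in the PVD/OLL group without overlap, but only some passed the test. ldb-1, which encodes the adaptor of LIM homeodomain proteins, had 6.15, 6.21 and 6.49 on the PVD/OLL arrays. The whole animal arrays had 5.78, 5.82 and 5.54. The groups were apart, but the difference of 0.57 ± 0.20 did not pass the test (adjusted p = 0.0968). A dimmer probe set of ldb-1 passed it (1.15 ± 0.30, adjusted p = 0.0461), and another did not (0.83, adjusted p = 0.144). The dimmer probe set was below background on all whole animal arrays, and against that background it was at least 1.21-fold higher. aha-1, the ARNT partner of AHR-1, had means of 5.51 in the PVD/OLL group and 4.66 in the whole animal group, a difference of 0.85 ± 0.26 (adjusted p = 0.0696). Its second probe set rose by 0.95 (adjusted p = 0.0406), and both are of the _x_at kind, which can match other genes. lin-32, the Atonal-type gene that starts the lineages in which unc-86 comes on, was below background on all arrays, with a mean of 2.12 in the PVD/OLL group and 2.73 in the whole animal group.

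Genes of the same protein families were read in the same way. Among 9 measured LIM homeobox, POU and bHLH-PAS genes other than the members, 1 rose and 0 fell in limma (3 and 1 at an unadjusted p under 0.05), where 12.8% of all genes changed. Their median difference was 0.45. The gene that rose was lin-11, a LIM homeobox gene, at 1.58 ± 0.19 (adjusted p = 0.00518). Its second probe set was below background on all whole animal arrays. The POU gene ceh-6, above background on 1 of 3 whole animal arrays, differed by 1.07 without passing the test. ttx-3, a LIM homeobox gene of other neurons, had means of 2.21 in the PVD/OLL group and 2.93 in the whole animal group. The groups did not overlap, but the difference of -0.72 ± 0.24 did not pass the test (adjusted p = 0.0878). Its signal was above background on 1 of the 3 PVD/OLL arrays, where the background was lower, and on 0 of the whole animal arrays. Without PVD/OLL replicate 3 the count was 3.

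The PVD genes that lie under or beside mec-3 showed 6 rises and 0 falls among 11 (7 and 0 at an unadjusted p under 0.05 in limma). Their median was 1.31, and 12.8% of all genes changed by the adjusted p. Some came to be studied through PVD expression profiles, and their count is then no independent evidence. The receptor subunit genes deg-3 and des-2 rose by 4.27 ± 0.38 (adjusted p = 0.00402) and 4.09 ± 0.23 (adjusted p = 0.00205). After them, dma-1, a dendritic receptor gene, was at 5.11, 5.41 and 4.70 on the PVD/OLL arrays. On the whole animal arrays it was at 3.58, 2.74 and 2.56. The rise was 2.11 ± 0.32 (adjusted p = 0.00904). hpo-30, a claudin-like gene under mec-3 control, had 4.58, 4.13 and 5.06 in the PVD/OLL group, so replicate 3 was its highest array. The whole animal signals were 2.37, 2.14 and 3.31. It rose by 1.98 ± 0.37 (adjusted p = 0.0156), a call lost without PVD/OLL replicate 1 (0.0531) and without replicate 1 (0.0537) or 2 (0.0529) of the whole animal group. kpc-1, a furin-type protease gene of dendrite spacing, rose by 1.31 ± 0.23 (adjusted p = 0.0134, and 0.0671 without PVD/OLL replicate 2). All 4 of its probe sets passed the test. The call of asic-1 (0.89 ± 0.23, adjusted p = 0.0434) was lost whichever single array was left out (adjusted p up to 0.125). acp-2 differed by 1.55 ± 0.67 and T24F1.4 by 0.26 ± 0.21, and neither passed. dma-1, hpo-30 and acp-2 were each above background on 1 of 3 whole animal arrays.

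Touch neuron genes, which UNC-86 and MEC-3 switch on and which EGL-44 and EGL-46 hold down in FLP, were also read from a list. Of 11, 2 rose and 0 fell (4 and 0 at an unadjusted p under 0.05 in limma), where 12.8% of all genes changed by the adjusted p. Their median was 0.53. mec-17, the tubulin acetyltransferase gene, had 6.83, 6.84 and 6.12 in the PVD/OLL group. Its whole animal signals were 4.54, 4.63 and 3.55. It rose by 2.36 ± 0.35 (adjusted p = 0.00861), and the alpha-tubulin gene mec-12 rose by 1.86 ± 0.44 (adjusted p = 0.0328). mec-4, the channel subunit gene specific to touch neurons, had means of 2.77 in the PVD/OLL group and 2.68 in the whole animal group and did not pass the test (adjusted p = 0.759). All 3 of its whole animal signals were below background. mec-7, the beta-tubulin gene of touch neuron microtubules, had 7.63, 7.81 and 7.62 in the PVD/OLL group. On the whole animal arrays it had 6.91, 6.79 and 4.23. The difference of 1.71 ± 0.66 did not pass the test (adjusted p = 0.122). These mec-7 values came from an _x_at probe set, a kind that can match other genes. A dimmer _s_at probe set of mec-7 had 4.43, 4.78 and 3.72 in the PVD/OLL group. Its whole animal signals were 3.98, 3.84 and 3.32. There the groups overlapped, and the difference of 0.60 ± 0.32 did not pass the test either (adjusted p = 0.234). mec-18 differed by 0.90 ± 0.45 (adjusted p = 0.207). The count was 1 without PVD/OLL replicate 1 or 2 or whole animal replicate 1 or 2, where the mec-12 call was lost (adjusted p up to 0.119), and 4 without whole animal replicate 3. Both genes that rose, and mec-4, were read by _s_at probe sets.

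**Figure D3:**
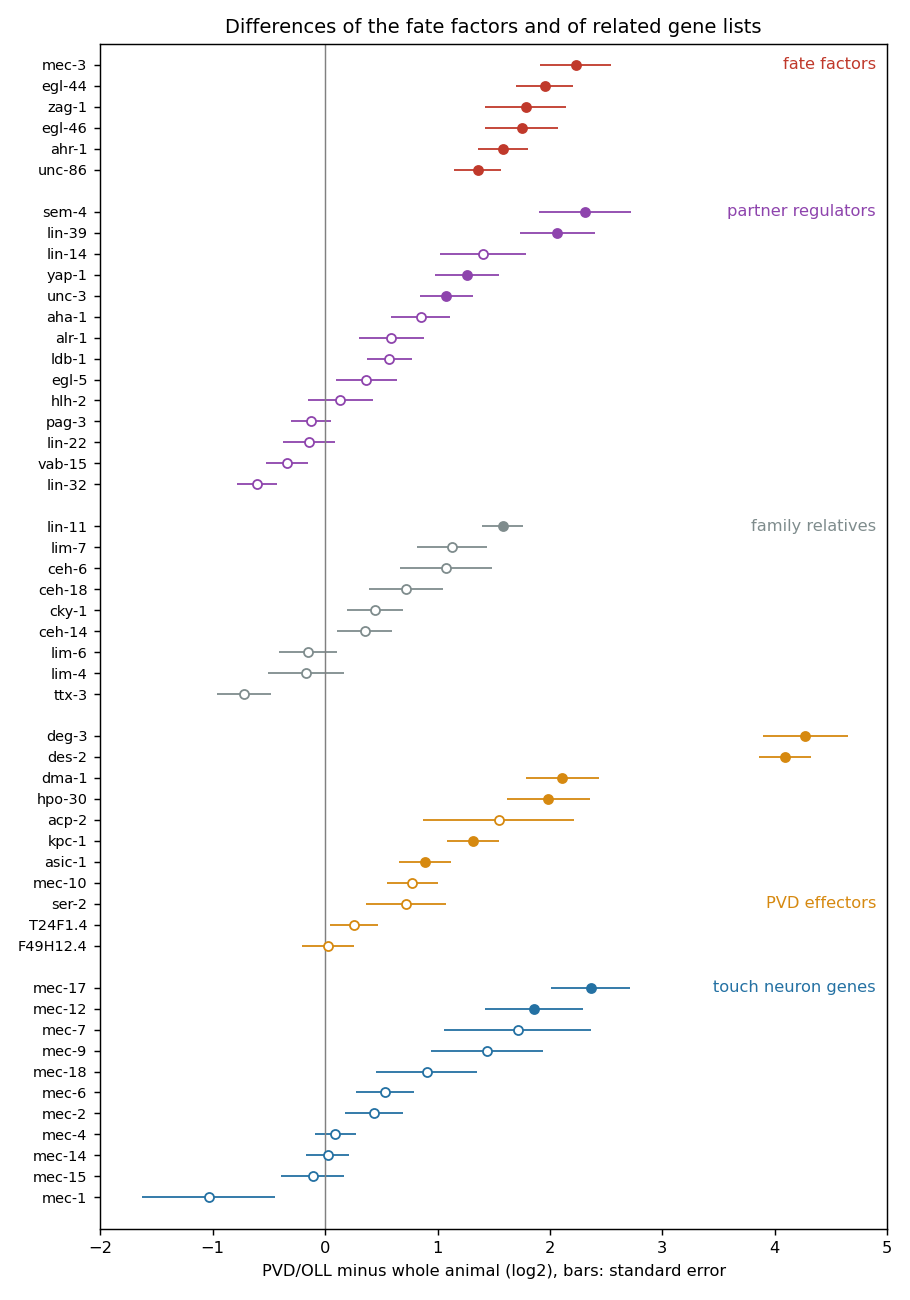
Log2 differences (PVD/OLL minus whole animal) with limma standard errors as bars, 1 row per gene, grouped as fate factors, partner regulators, family relatives, PVD effectors and touch neuron genes. Filled points passed the test at an adjusted p under 0.05 and open points did not; all 6 fate factors are filled, against 4 of 14, 1 of 9, 6 of 11 and 2 of 11 in the other lists.

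The factors are also made outside PVD and touch neurons, so markers of other cells were read on the same arrays. For these and the tissue markers below, the share over all genes was 8.1% higher and 4.66% lower by the adjusted p. egl-44 is known from the hypodermis as well. Of 8 measured hypodermal and seam markers, 4 rose and 0 fell, with summed signals of 10.71 to 11.06 (log2) in the PVD/OLL group and 9.99 to 10.75 in the whole animal group. The count was 0 without PVD/OLL replicate 1 or 2, 2 without whole animal replicate 1, 1 without whole animal replicate 2 and 3 without either array numbered 3. None of the 8 was at background throughout a group, and dpy-7 differed by 0.56 (adjusted p = 0.26). ahr-1 also acts in URX-type neurons. Of 6 markers of URX, AQR and PQR, 0 rose and 1 fell, with summed signals of 5.07 to 5.17 in the PVD/OLL group and 5.24 to 5.92 in the whole animal group. By the unadjusted limma p 1 was higher and 3 were lower, and the adjusted count of lower genes was 0 without replicate 1 or 2 of either group and 2 without whole animal replicate 3. Among them gcy-32 was at background on all arrays, and 3 of the 6 were at background on all whole animal arrays. The background was higher on the whole animal arrays, and its part in the summed signals was not tested. unc-86 is needed in the serotonergic HSN neurons, and of 4 markers of such cells 0 changed in limma, also at an unadjusted p under 0.05, with summed signals of 6.19 to 6.49 in the PVD/OLL group and 5.88 to 6.37 in the whole animal group. Here tph-1 was at background on all whole animal arrays. The brightest of the 4 was bas-1, with means of 5.95 in the PVD/OLL group and 5.59 in the whole animal group, so it weighed most in the sums. cat-1, above background on 1 of 3 whole animal arrays, was lower in the PVD/OLL group without overlap. Its difference of -0.56 did not pass the test (adjusted p = 0.253).

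Other tissues were present in both kinds of RNA. Of 7 body wall muscle markers 2 rose and 1 fell, with summed signals of 12.33 to 12.80 in the PVD/OLL group and 12.20 to 12.73 in the whole animal group. The muscle counts were 0 and 0 without PVD/OLL replicate 1 or 2 or whole animal replicate 2, and 1 and 0 without any of the other arrays in turn. The main muscle myosin gene, unc-54, differed by 0.47 (adjusted p = 0.314). Of 7 pharynx markers 2 rose and 0 fell, with summed signals of 9.91 to 10.36 in the PVD/OLL group and 8.88 to 9.38 in the whole animal group, and pha-4 rose by 3.23 (adjusted p = 0.0134, and 0.0515 without PVD/OLL replicate 2). The part of these cells in the values of the factors was not tested.

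The genes most like mec-3 and unc-86 were those whose signals, each centred on its own mean over the 6 arrays, had the smallest root mean square difference from the member. Among 17117 genes those closest to mec-3 were mul-1, a mucin-like gene (0.16), K01A11.1 (0.17) and rig-6, a contactin gene (0.18). The signals of rig-6 were 7.74, 7.61 and 6.42 on the PVD/OLL arrays and 5.09, 5.28 and 4.93 on the whole animal arrays, so it shared the low replicate 3. Closest to unc-86 were swsn-3, a chromatin remodelling gene (0.10), Y105C5A.1 (0.10) and F53A9.6 (0.10). These are descriptions over 6 arrays in 2 groups.

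The size of the differences depended on how the arrays were scaled. Centring on array medians shifted the median difference of all probe sets to -0.23, and centring on the bioB and bioC controls shifted it to 1.22, against -0.03 with the deposited values. Relative to that median, mec-3 lay between 1.89 and 2.26 over the deposited values and 4 other scalings, egl-44 between 1.58 and 1.98, zag-1 between 1.43 and 1.81, egl-46 between 1.39 and 1.77, ahr-1 between 1.60 and 1.61, and unc-86 between 1.10 and 1.38. Both centrings shift all probe sets of an array alike, so they leave these values unchanged by construction. Only repeated quantile normalization and cyclic loess could move them. Each of the 8 probe sets was higher in the PVD/OLL group under every alternative run. Several alternatives could not have turned a direction. The dim filter, the variance model, the replicate block and the _s_at and _x_at filter leave each difference as it is. The bioB and bioC centring raised all differences alike.

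**Figure D4:**
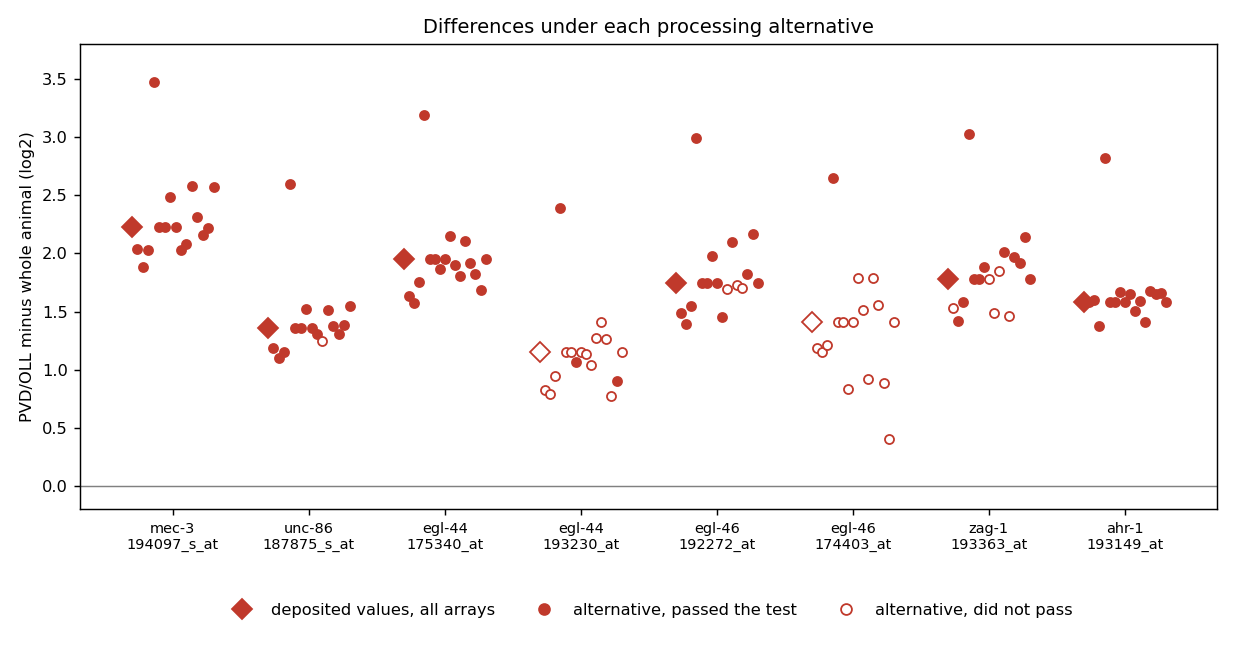
Difference (log2, PVD/OLL minus whole animal) of each probe set with the deposited values and all arrays (diamond) and under each alternative (circles), filled where the adjusted p was under 0.05. All points lie above 0, the lowest at 0.40 for 174403_at of egl-46; the isolated high circle of each probe set is the centring on the bioB and bioC controls (3.47 for mec-3).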

How the data were processed

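The values were 1-colour Affymetrix C. elegans array signals, which the authors deposited as 1 RMA value per probe set and array, per the submitters' processing notes. They are read here as log2 values deposited by the authors, because they lie between 1.21 and 13.9; no label states the base, and every fold rests on it. Neither RMA software nor genome build is stated there, and no coordinates are printed. Scanner files were not used here.

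The table held 22625 probe sets; 77 controls were left out. Names came from the array annotation, updated through RefSeq (WBcel235): 20766 probe sets had 1 gene, 887 several and 895 none listed. No sample column was unused. limma 3.58.1 in R 4.3.3 (lmFit, eBayes) gave differences and Benjamini-Hochberg adjusted p-values, two-sided. Same-numbered arrays did not deviate together (correlations -0.05, -0.07 and -0.10), so no pairing was used. On 22548 simulated probe sets, with 50 changed by each size, 52% were recovered at 2, 66% at -2, 4% at 1 and 6% at -1 (log2). The simulation called 71 probe sets in all, against 2099 higher and 964 lower in the data. Its recovery rates therefore need not hold for the data. The number of arrays limits the precision.

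Members, gene lists and the rule for named genes (all members, from each list up to 3 called genes of the more frequent direction and 1 of the opposite, 10 fixed pathway genes, 4 marker genes, and 3 genes most like mec-3 and unc-86) were chosen with earlier results of these data known. Other lists checked were glia (2 of 6 rose), intestine (1 rose and 1 fell of 7), GABA neurons (1 of 5 rose), germline (0 of 7 changed), other ciliated neurons (0 of 6) and OLL glutamatergic markers (0 of 2), the last 3 with 2, 1 and 0 at an unadjusted limma p under 0.05. Alternatives were other scalings, a filter on dim probe sets, the variance model, array weights, a replicate block, arrays left out and other probe sets.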

Additional observations from a re-analysis of the deposited data

How the results depend on the processing

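The number of fate factors called higher was 6 with the deposited values and stayed between 4 and 6 in every alternative but the fit without PVD/OLL replicate 2, where it was 3; with single arrays left out it ran from 3 to 6. It was 5 with the replicate block, where zag-1 was not called (adjusted p = 0.0659), and limma called 0 lower in every alternative. The replicate numbers are not shown to pair the arrays. It changed no other call among the 8 probe sets. Over all 22548 probe sets, the bioB and bioC centring called 12752 higher and 66 lower, against 2099 and 964 with the deposited values. Array weights called 4035 and 2767, and the fit without the arrays numbered 3 called 3300 and 1842. Partner regulators called numbered 4, but 10 after centring on bioB and bioC, 7 with array weights and 2 without _s_at and _x_at probe sets. The partner count was 6 with the trend and robust variance model or without the arrays numbered 3. It was 5 without the dimmest 25% of probe sets or by the probe set with the largest spread. Repeated quantile normalization, cyclic loess and the replicate block each gave 3, and single arrays left out gave 0 to 4. Family relatives called numbered 1, but 2 with arrays centred on their medians or without the dimmest 25% of probe sets, 6 with the bioB and bioC centring, 4 with array weights, 3 without the arrays numbered 3, and 1 to 3 with single arrays left out. PVD genes called numbered 6, but 11 with the bioB and bioC centring, 8 with array weights and 7 without the arrays numbered 3. The PVD count was 5 with repeated quantile normalization, cyclic loess, median centring, the trend and robust variance model or the replicate block. It was 4 to 6 with single arrays left out. Touch neuron genes called numbered 2, but 1 after repeated quantile normalization or cyclic loess, 10 with the bioB and bioC centring, 5 with array weights or without the arrays numbered 3, 0 without _s_at and _x_at probe sets, and 1 to 4 with single arrays left out. Leaving out those probe sets removes mec-3 and unc-86, and all 4 remaining factors were called. The causes of these changes were not tested. Low signal limits ahr-1, and whole animal signals of mec-3 and unc-86 lie near background, as does that of zag-1 on replicate 1. All alternatives listed were run.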
